A study of Mus musculus with 16 samples.

Results

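The Eph receptors are the largest family of receptor tyrosine kinases, and the genes described here are Epha3, Epha4, Epha5, Epha6, Epha7, Epha8, Ephb1, Ephb2, Ephb3 and Ephb6. They were chosen by name, as transcript clusters annotated with one of these 10 symbols, and the cluster with the highest mean stood for the gene. A cluster was annotated for 9 of the 10, out of 30740 genes with a cluster of their own, and all 9 were among the 20493 genes tested. No cluster in the annotation used carried the symbol Ephb2, which is therefore not analysed here. Their levels were measured in tdTomato-labelled parvalbumin cells sorted from the brains of C57BL/6J mice aged 30 days, all labelled male, with 4 arrays in each of 4 groups. PVCre striatum and PVCre cortex came from PVCre/+; tdTomato/+ mice, in which Cre made in parvalbumin cells turned the reporter on. PV-tdTomato striatum and PV-tdTomato cortex came from PV-tdTomato/+ mice, which carry the reporter without Cre. All 4 groups thus carried tdTomato, the striatal tissue was dorsal striatum, and the cortical tissue was motor and somatosensory cortex. Each array held RNA of 2000 cells pooled from 2 to 4 mice, and nothing in the labels says which pools shared mice, so p-values cover the spread among pools alone.

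Eph receptors are activated by ephrins, which are bound to the membrane of a neighbouring cell, and the contact can send a signal into both cells. Ephrin-A proteins are held by a lipid anchor and bind mainly the EphA receptors, whereas ephrin-B proteins span the membrane and bind mainly the EphB receptors; EphA4 binds ligands of both classes. In the developing forebrain these contacts steer axons, set up topographic maps and sort cells, and in the mature brain EphA4 and the EphB receptors act at dendritic spines and synapses.

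The sequences around a start of 4 of these genes are shown because the results turn on them. Over both lines Epha4 and Epha8 were called higher in striatal cells, by 2.06 and 0.90 on the log2 scale. Epha7 had the largest difference in that direction among the members not called, 1.70, and Ephb1 had the largest in the opposite one. Each is RefSeq's promoter window of 300 bases, from 250 bases before a start assigned to the gene to 50 after it, in GRCm38.p6. That start need not be the outer end of the gene. For Epha4, Epha8 and Epha7 the outer end lies elsewhere in the window, at 77515107, 136956859 and 28813066. The windows are chr1:77515039-77515338 on the minus strand for Epha4, chr4:136956767-136957066 on the minus strand for Epha8, chr4:28812881-28813180 on the plus strand for Epha7 and chr9:102354644-102354943 on the minus strand for Ephb1. Capitals mark GC boxes, the letters GGGCGG on either strand, which the general transcription factor Sp1 is known to bind; overlapping boxes were counted separately.
Epha4: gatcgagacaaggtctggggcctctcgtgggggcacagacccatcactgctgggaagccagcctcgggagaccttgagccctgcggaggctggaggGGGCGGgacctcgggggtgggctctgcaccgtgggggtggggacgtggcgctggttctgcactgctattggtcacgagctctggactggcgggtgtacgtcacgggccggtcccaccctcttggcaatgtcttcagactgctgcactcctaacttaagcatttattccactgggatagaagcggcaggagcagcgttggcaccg
Epha8: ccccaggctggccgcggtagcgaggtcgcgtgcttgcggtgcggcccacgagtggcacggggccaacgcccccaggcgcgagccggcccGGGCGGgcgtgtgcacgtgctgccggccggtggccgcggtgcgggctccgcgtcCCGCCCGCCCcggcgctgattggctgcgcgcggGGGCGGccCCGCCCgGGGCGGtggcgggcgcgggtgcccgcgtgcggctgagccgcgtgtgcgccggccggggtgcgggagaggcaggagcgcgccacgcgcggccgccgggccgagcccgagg
Epha7: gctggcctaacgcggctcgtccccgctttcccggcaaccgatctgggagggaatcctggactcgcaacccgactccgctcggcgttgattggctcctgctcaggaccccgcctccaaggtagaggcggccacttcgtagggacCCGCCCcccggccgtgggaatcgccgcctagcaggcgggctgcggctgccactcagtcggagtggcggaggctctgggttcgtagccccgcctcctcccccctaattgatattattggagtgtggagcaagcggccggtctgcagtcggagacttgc
Ephb1: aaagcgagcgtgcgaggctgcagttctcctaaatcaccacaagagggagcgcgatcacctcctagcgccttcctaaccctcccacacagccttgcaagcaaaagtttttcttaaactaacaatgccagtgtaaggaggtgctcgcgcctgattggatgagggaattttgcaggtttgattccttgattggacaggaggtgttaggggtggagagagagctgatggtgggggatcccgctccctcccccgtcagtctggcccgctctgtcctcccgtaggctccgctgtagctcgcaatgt
The window of Epha8 held 6 GC boxes and 56 CpG dinucleotides, with 84.3% G or C. The windows of Epha4 and Epha7 held 1 GC box each, with 17 and 28 CpG, and that of Ephb1 held no GC box and 14 CpG. All 4 exceeded the median of 7 CpG over the 27025 promoter windows of the table. A GC box was present in 7 of the 10 Eph receptor windows and in 35.9% of all windows. Among the 10, the windows of Epha5, Epha6, Ephb2 and Ephb6 lie wholly inside the outer bounds of the gene. A CCAAT box (CCAAT, either strand) was found in 6 of the 10 and in 37.9% of all windows, a CACGTG E-box in 1 (that of Epha8) and in 7.2%, and TATAAA in none of the 10 and in 14.2%. The cyclic AMP response element TGACGTCA was in none of the 10 and in 1.9% of all windows. Whether the makeup of these windows bears on the levels was not tested.

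The sorted cells did not match their label equally well in all arrays. Pvalb, which encodes parvalbumin, lay between 6.69 and 8.40 (RMA level, a normalized intensity on the log2 scale) in 6 arrays, namely PVCre cortex replicates 2 and 4 and, in both regions, PV-tdTomato replicates 3 and 4. It lay between 10.20 and 12.48 in the other 10. Gad1, whose product makes GABA, was under 10 only in PVCre cortex replicates 2 and 4. The 12 parvalbumin interneuron markers, all measured, averaged 8.75 to 10.08 in PVCre striatum, 6.85 to 10.83 in PVCre cortex, 9.02 to 10.95 in PV-tdTomato striatum and 8.88 to 11.43 in PV-tdTomato cortex, with Syt2 at background in every group. Xist, a transcript of female cells, exceeded 9 in 8 of the 16 arrays despite the male label. These were replicates 1, 3 and 4 of both PVCre groups and replicate 3 of both PV-tdTomato groups, an uneven split between the lines. Probe sets without a mouse target, which measure background, averaged up to 6.1, so levels near or under 6 are close to background. Fewer cells of a type in a pool and less RNA per cell cannot be told apart in such data.

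Epha4, a receptor for ligands of both classes that is known for limiting axon growth and shaping dendritic spines, was the family member with the largest difference between regions. Its RMA level was 11.02, 12.14, 13.04 and 13.17 in the 4 PVCre striatal arrays, against 10.72, 10.75, 9.91 and 10.95 in PVCre cortex. In PV-tdTomato cells it was 13.87, 13.78, 12.25 and 12.55 in striatum, against 10.46, 10.58, 11.13 and 10.83 in cortex. In neither line did a striatal array reach down into the cortical range, although PVCre striatum replicate 1, at 11.02, lay just under the highest PV-tdTomato cortical array. Over both lines Epha4 was higher in striatal cells by 2.06 ± 0.33 (SE, log2), a 4.17-fold difference (limma, adjusted p = 0.001). The difference was 1.76 ± 0.46 in PVCre cells (limma, adjusted p = 0.047) and 2.36 ± 0.46 in PV-tdTomato cells (limma, adjusted p = 0.0097). The PVCre call was lost in 7 of 8 fits that left out 1 array, all but the one without striatum replicate 1, with differences of 1.48 to 1.88 and adjusted p of 0.076 to 0.15 in those 7. Without the 6 arrays of low Pvalb the PVCre difference did not pass (2.03, adjusted p = 0.091), the difference over both lines was 2.67 (adjusted p = 0.0056), and without the 2 arrays of low Gad1 it was 2.19 (adjusted p = 0.0054).

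Epha8, an EphA receptor known from the mapping of axons in the midbrain, was the other member that rose in striatal cells. It lay at 5.53, 5.82, 6.08 and 5.86 in PVCre striatum, against 5.25, 5.23, 5.42 and 5.26 in PVCre cortex. It lay at 7.82, 7.77, 6.39 and 6.48 in PV-tdTomato striatum, against 5.97, 6.10, 5.57 and 5.74 in PV-tdTomato cortex. Only PV-tdTomato striatum exceeded the highest mean of the background probe sets in all 4 arrays, and its replicates 1 and 2 were more than 1 log2 unit above replicates 3 and 4. Replicates 3 and 4 lay under the brightest single background probe set of their own array, at 6.42 and 6.61. Over both lines the difference between striatum and cortex was 0.90 ± 0.20 (SE, log2; limma, adjusted p = 0.018). In PVCre cells it was 0.53 ± 0.29 (limma, adjusted p = 0.41), and in PV-tdTomato cells 1.27 ± 0.29 (limma, adjusted p = 0.028). The PV-tdTomato call was lost in 5 of 8 fits that left out 1 array, those without striatum replicate 1 or 2 (1.03 and 1.05) or cortex replicate 1, 3 or 4 (1.31, 1.18 and 1.24), with adjusted p of 0.06 to 0.1. The call over both lines was lost without the 2 arrays of low Gad1 (0.88, adjusted p = 0.094) and kept without the 6 of low Pvalb (1.12, adjusted p = 0.00071).

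Of the 9 receptors tested, 2 were thus higher in striatal than in cortical cells over both lines and 0 lower, where 4.25% of all genes tested were called in either direction, 3.32% higher and 0.927% lower. In all, 6 members had a positive difference and 3 a negative one, and the median of the 9 was 0.60, beside 0 over all genes tested. In PVCre cells 1 of 9 was called (3.88% of all genes in either direction, 2.85% higher), and in PV-tdTomato cells 2 of 9 (2.32% of all genes in either direction, 1.73% higher). In the plot of region differences, the intervals of Epha5, Epha6 and Epha7 are wide, and replicates of these genes lay far apart within groups.

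**Figure D1:**
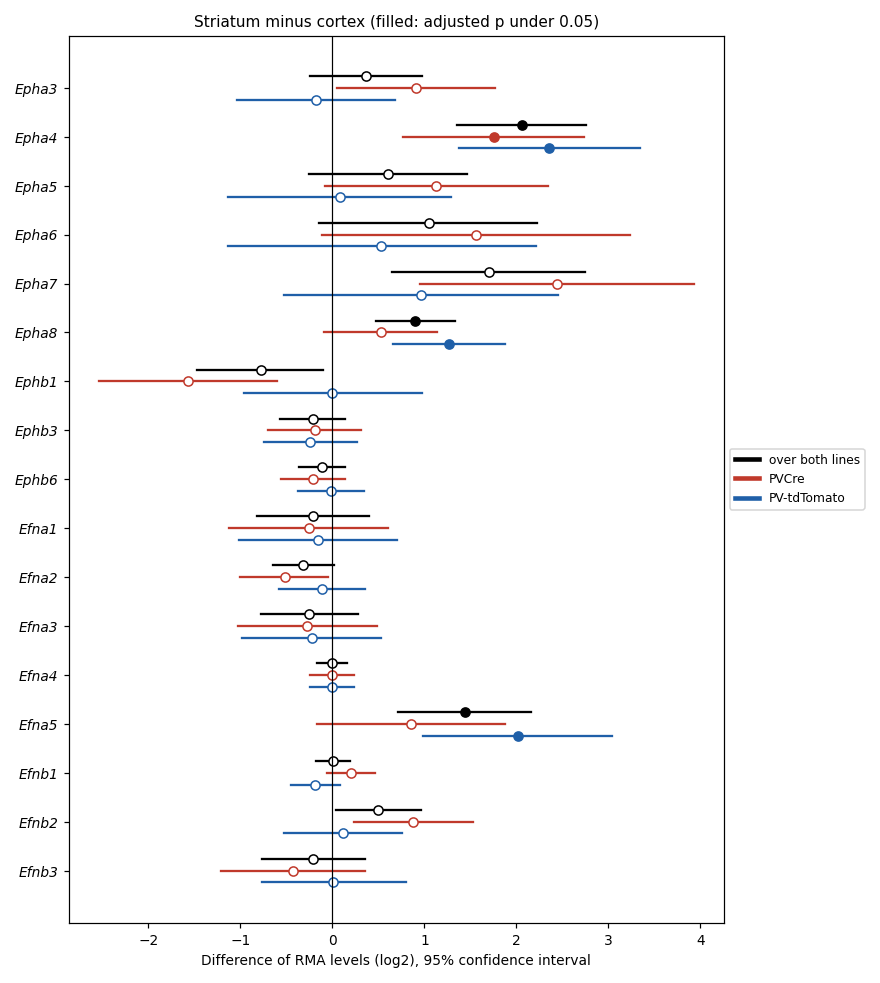
Striatum minus cortex for the 9 Eph receptors and the 8 ephrins, as a difference of RMA levels (log2, horizontal axis) with its 95% confidence interval from the limma fit; black is over both lines, red PVCre cells and blue PV-tdTomato cells, and filled points passed an adjusted p of 0.05. Epha4 is filled in all 3 comparisons, and Epha8 and Efna5 over both lines and in PV-tdTomato cells.

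Among the members that did not pass, Epha7, which takes part in cortical and thalamocortical mapping, came closest. It had 8.73, 9.67, 10.12 and 10.24 in PVCre striatum, against 7.60, 6.42, 8.40 and 6.57 in PVCre cortex. In PV-tdTomato striatum it had 10.54, 10.76, 7.93 and 8.52, against 9.50, 9.36, 7.43 and 7.62 in PV-tdTomato cortex. The regions were apart in PVCre cells and overlapped in PV-tdTomato cells, where replicates 1 and 2 exceeded replicates 3 and 4 in both regions. Within each of the 4 PV-tdTomato replicate numbers the striatal array was the higher one, and with the number as a block the PV-tdTomato difference was 0.96 (limma, adjusted p = 0.33). The difference was 1.70 ± 0.49 over both lines (SE; limma, adjusted p = 0.075) and 2.44 ± 0.70 in PVCre cells (limma, adjusted p = 0.073). It passed the threshold over both lines under 7 of 17 other settings, among them the fit without the 6 arrays of low Pvalb (1.45, adjusted p = 0.024) and the replicate block (1.70, adjusted p = 0.0049), although the PVCre numbers did not pair. Without the 6 arrays of low Pvalb, Ephb1 was also called, lower in striatum (-0.72, limma adjusted p = 0.033). In that fit 4 of the 9 members were thus called over both lines, among 7.80% of all genes called in either direction. Without the 2 arrays of low Gad1 only Epha4 was called, among 2.97% of all genes.

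Epha3, Epha5 and Epha6, close relatives of Epha7 within the EphA class, had positive differences over both lines of 0.37 ± 0.28, 0.60 ± 0.40 and 1.05 ± 0.55 (SE), none of which passed (limma, adjusted p = 0.55, 0.48 and 0.39). For Epha6 the range was 7.27 to 9.11 in PVCre striatum, against 6.05 to 8.13 in PVCre cortex. In PV-tdTomato cells it was 7.79 to 9.91 in striatum, against 6.84 to 9.86 in cortex. The gap between the regions was 1.56 in PVCre cells, where the SD was 0.79 in striatum and 0.94 in cortex, and 0.53 in PV-tdTomato cells, where the SD of 1.17 in striatum and 1.71 in cortex exceeded it.

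Ephb1, known for sending retinal axons to the same side of the brain at the optic chiasm, had the largest difference in the opposite direction, in PVCre cells. It had 9.21, 9.53, 8.93 and 9.48 in PVCre striatum, against 10.88, 11.08, 10.35 and 11.12 in PVCre cortex, with no overlap. In PV-tdTomato cells it had 9.80, 9.57, 11.06 and 11.55 in striatum, against 9.96, 9.66, 11.65 and 10.70 in cortex, which overlapped throughout. The difference was -1.57 ± 0.45 in PVCre cells (SE; limma, adjusted p = 0.076) and 0.00 ± 0.45 in PV-tdTomato cells (limma, adjusted p = 1). Over both lines it was -0.78 ± 0.32 (SE) and did not pass (limma, adjusted p = 0.25). The PVCre difference passed under 8 of 18 other settings, such as the fit on the PVCre arrays alone (-1.57, adjusted p = 0.0053) and the fit without the arrays of low Pvalb (-1.32, adjusted p = 0.015). The difference between the lines' region differences was itself -1.57 ± 0.64 (SE; limma, adjusted p = 0.56). For this interaction 0 of the 9 members were called by limma, beside 0.195% of all genes tested, and 1, Ephb1, had an unadjusted p under 0.05, beside 7.15% of all genes. A second cluster of Ephb1 had means of 6.24 in PVCre striatum, against 6.32 in PVCre cortex. In PV-tdTomato cells its means were 6.46 in striatum, against 6.68 in cortex. It did not repeat the gap of the PVCre cells. These means lay close to the highest background mean of 6.1, so this cluster cannot decide whether the gap holds. The cluster was used only in the setting that averaged a gene's clusters.

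Ephb3, which helps form the corpus callosum, and Ephb6, a receptor whose kinase domain is inactive, had region differences of -0.21 ± 0.17 and -0.11 ± 0.12 (SE; limma, adjusted p = 0.55 and 0.66). Their 95% intervals were -0.57 to 0.14 and -0.36 to 0.14.

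Other cell types' markers differed between the regions as well. The 11 measured markers of striatal projection neurons averaged 7.70 to 8.49 in PVCre striatum, against 6.66 to 7.04 in PVCre cortex, and 8.86 to 9.29 in PV-tdTomato striatum, against 7.40 to 8.21 in PV-tdTomato cortex. The 4 measured markers of ependymal cells, which line the ventricles, averaged 11.07 to 12.50 in PVCre striatum, against 5.91 to 6.47 in PVCre cortex, and 9.49 to 10.55 in PV-tdTomato striatum, against 5.69 to 5.87 in PV-tdTomato cortex. In cortex 2 of the 4 ependymal markers were at background on average in PVCre cells and 3 in PV-tdTomato cells. The 10 markers of other interneurons averaged 6.85 to 7.56 in PVCre striatum, against 6.10 to 7.10 in PVCre cortex, and 8.62 to 8.84 in PV-tdTomato striatum, against 9.78 to 11.95 in PV-tdTomato cortex. The 9 endothelial and mural markers averaged 7.24 to 9.33 in PVCre striatum, against 6.03 to 6.51 in PVCre cortex. They overlapped between the regions in PV-tdTomato cells, as did the 9 astrocyte markers and the 9 measured oligodendrocyte markers. In PVCre cells the astrocyte markers averaged 6.66 to 6.88 in striatum, against 5.88 to 6.28 in cortex. The oligodendrocyte markers there averaged 14.67 to 14.91 in striatum, against 15.33 to 15.62 in cortex. Of the 10 other interneuron markers, 6 were at background on average in PVCre striatum and 7 in PVCre cortex. In PV-tdTomato cells 3 were so in striatum and 1 in cortex. The same held for 4 of the 11 projection neuron markers in PVCre cortex and 4 of the 9 astrocyte markers in every group. It held for 5 of the 9 endothelial and mural markers in PVCre cortex and 4 in each PV-tdTomato group. With the projection neuron markers as a covariate Epha4 stayed called over both lines (3.50, adjusted p = 0.046) and Epha8 did not (0.97, adjusted p = 0.81). The part of the ependymal, other interneuron, endothelial and astrocyte markers in the region differences was not tested.

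**Figure D2:**
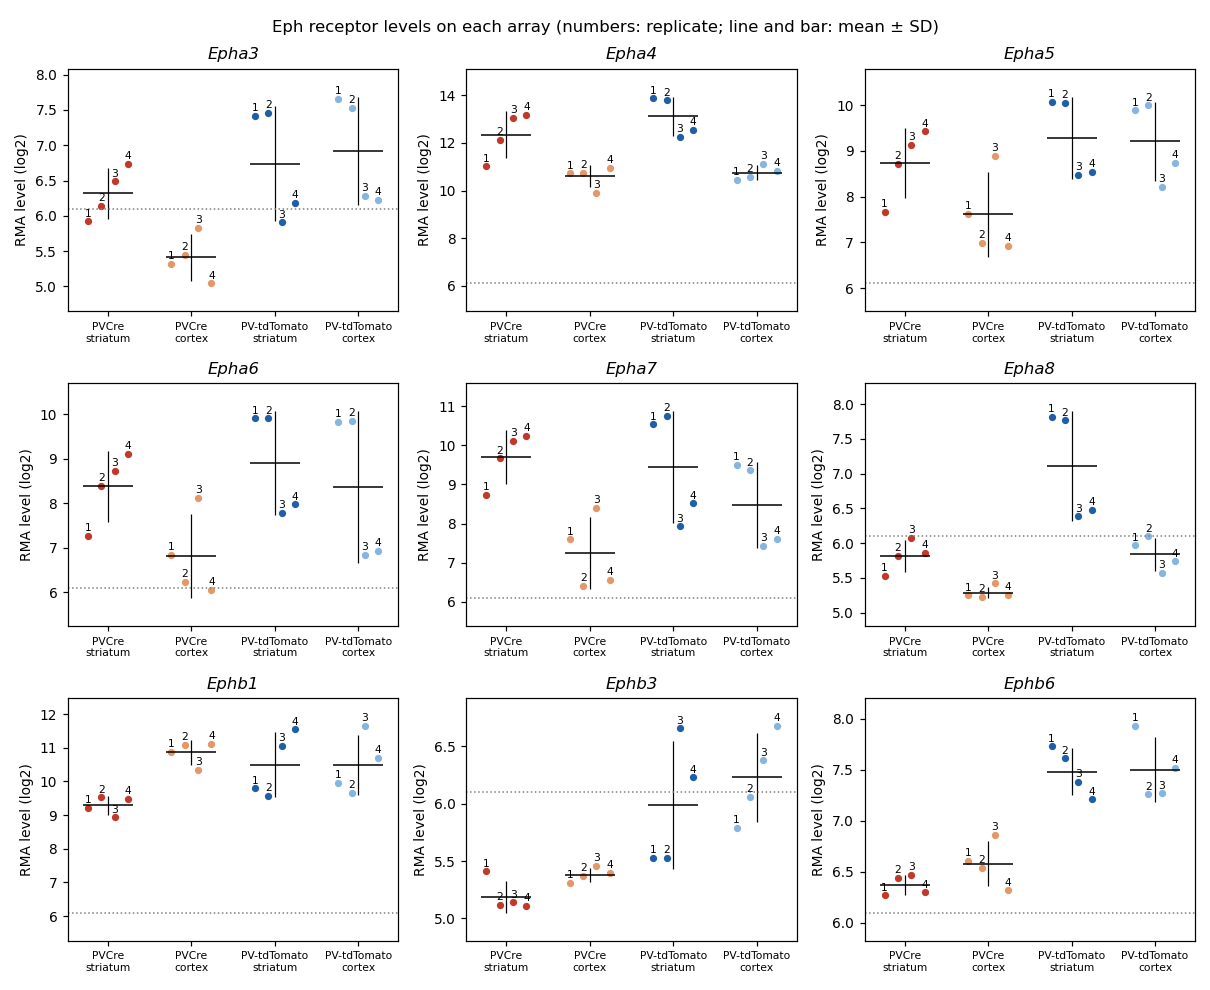
RMA level (log2, vertical axis, scaled to each gene) of the 9 Eph receptors on each of the 16 arrays; points carry the replicate number, horizontal lines are group means, vertical bars are SD over 4 arrays, and the dotted line at 6.1 is the highest mean among background probe sets. Epha4 separates the regions in both lines, while in the PV-tdTomato groups replicates 1 and 2 stand apart from 3 and 4 for most members.

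Between the lines, PVCre cells had lower levels of 4 of the 9 receptors in striatum and of 4 of the 9 in cortex, with 0 higher in either. This has to be read against the background: 53.4% of all genes tested were called between the lines in striatum, 35.0% lower in PVCre cells and 18.3% higher, and in cortex 53.6%, 34.4% and 19.2%. The median difference of all genes tested was -0.22 in each region, beside -0.77 for the 9 receptors in striatum and -0.91 in cortex.

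Ephb6 was the member with the smallest p in both regions. It had 6.27, 6.44, 6.47 and 6.30 in PVCre striatum, against 7.73, 7.61, 7.38 and 7.21 in PV-tdTomato striatum. In cortex it had 6.61, 6.54, 6.86 and 6.32 in PVCre cells, against 7.93, 7.26, 7.27 and 7.52 in PV-tdTomato cells. No PVCre array reached the PV-tdTomato range in either region. The difference was -1.11 ± 0.16 in striatum (SE, a 2.16-fold lower level; limma, adjusted p = 7.6e-05) and -0.91 ± 0.16 in cortex (1.88-fold lower; limma, adjusted p = 0.00036).

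Ephb3 was lower by similar amounts but close to background. Its level was 5.41, 5.12, 5.14 and 5.11 in PVCre striatum, against 5.53, 5.53, 6.66 and 6.23 in PV-tdTomato striatum, and 5.31, 5.37, 5.46 and 5.40 in PVCre cortex, against 5.79, 6.06, 6.38 and 6.68 in PV-tdTomato cortex. The groups did not overlap, but all 8 PVCre arrays lay in the range of background probe sets. The differences were -0.80 ± 0.24 in striatum and -0.85 ± 0.24 in cortex (SE; limma, adjusted p = 0.011 and 0.0077). The highest values came from PV-tdTomato replicates 3 and 4, and with the markers of oligodendrocyte precursors as a covariate the differences were -0.13 and -0.22 (adjusted p = 0.47 and 0.20).

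In striatum the other members called were Epha8, with a difference of -1.30 ± 0.29 (SE; limma, adjusted p = 0.0017), and Ephb1, with -1.21 ± 0.45 (limma, adjusted p = 0.036). For Ephb1 the PV-tdTomato arrays were split, and the call was lost in 5 of 8 fits that left out 1 array: without PV-tdTomato striatum replicate 3 or 4 (-1.02 and -0.86) or PVCre striatum replicate 1, 3 or 4 (-1.18, -1.09 and -1.27), with adjusted p of 0.05 to 0.12. Without the arrays of low Pvalb it was -0.40 (adjusted p = 0.15), and with the oligodendrocyte precursor markers as a covariate 0.05 (adjusted p = 0.89). For Epha8 the difference without the arrays of low Pvalb was -1.98 (adjusted p = 6.7e-05).

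In cortex the other members called were Epha3, which in chick is graded across the retina and guides its axons, and Epha5, a receptor of topographic maps. Epha3 had 5.32, 5.45, 5.83 and 5.04 in PVCre cortex, against 7.66, 7.53, 6.28 and 6.23 in PV-tdTomato cortex, with no overlap. All 4 PVCre arrays lay in the range of background probe sets, so the size of its difference is uncertain. Epha5 had 7.63, 6.99, 8.90 and 6.92 in PVCre cortex, against 9.89, 10, 8.22 and 8.74 in PV-tdTomato cortex, with PVCre replicate 3 above 2 of the PV-tdTomato arrays. The difference was -1.51 ± 0.40 for Epha3 (SE; limma, adjusted p = 0.0057) and -1.60 ± 0.56 for Epha5 (limma, adjusted p = 0.027). The call of Epha5 was lost without PV-tdTomato cortex replicate 1 or 2 (-1.38 and -1.34) or PVCre cortex replicate 1, 2 or 4 (-1.61, -1.40 and -1.38), with adjusted p of 0.05 to 0.081. Without the 2 arrays of low Gad1 Epha3 was at -1.35 (adjusted p = 0.055) and Epha5 at -0.95 (adjusted p = 0.28). That fit, chosen after the data were seen, called 2 of the 9 members in cortex and 4 in striatum, among 40.3% and 54.0% of all genes called in either direction.

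The counts between the lines were higher without the 6 arrays of low Pvalb. Few arrays remained: replicates 1 and 3 of PVCre cortex, 1 and 2 of each PV-tdTomato group, and 1 to 4 of PVCre striatum. In that fit 6 members were called in striatum, all lower in PVCre cells, among 56.1% of all genes called in either direction. In cortex 8 members were called, among 46.3% of all genes. Of these, 7 were lower in PVCre cells and Ephb1 was higher (0.80, limma adjusted p = 0.029). Epha6 was then called in both regions, at -1.53 in striatum (limma, adjusted p = 0.026) and -2.36 in cortex (limma, adjusted p = 0.0095).

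Epha3 and Epha5 had -0.42 ± 0.40 and -0.55 ± 0.56 in striatum (SE; limma, adjusted p = 0.40 and 0.43), and Epha8 had -0.55 ± 0.29 in cortex (limma, adjusted p = 0.12). Ephb1 in cortex was at 0.36 ± 0.45 (SE; limma, adjusted p = 0.51). Whether the line mattered differently in the 2 regions is the interaction, for which 0 of 9 were called. Epha4, the member that separated the regions, differed between the lines by -0.77 ± 0.46 in striatum and -0.16 ± 0.46 in cortex (SE; limma, adjusted p = 0.18 and 0.78), with 95% intervals of -1.75 to 0.22 and -1.15 to 0.82. Epha6 and Epha7 did not pass in either region (limma, adjusted p of 0.11 to 0.78).

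**Figure D3:**
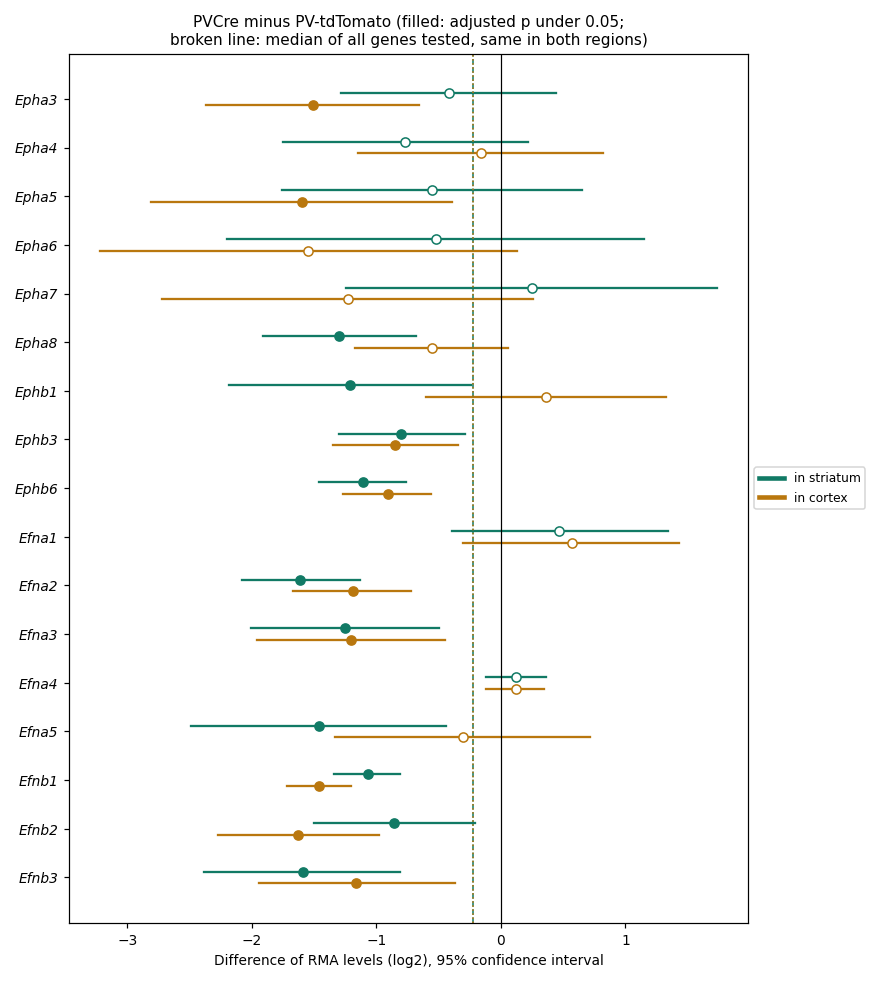
PVCre minus PV-tdTomato in striatum (green) and in cortex (orange) for the 9 Eph receptors and the 8 ephrins, as a difference of RMA levels (log2, horizontal axis) with its 95% confidence interval; filled points passed an adjusted p of 0.05, and the broken line at -0.22 is the median of all genes tested. Ephb3 and Ephb6 are filled on the left of that line in both regions, and no point is filled on the right of 0.

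Array quality and cell makeup moved with the line. Positive control probe sets exceeded negative ones by 3.08 to 3.93 in PVCre arrays and by 4.16 to 4.85 in PV-tdTomato arrays. The 8 measured microglial markers averaged 7.43 to 9.56 in PVCre arrays, against 5.36 to 5.82, in the range of background probe sets, in PV-tdTomato arrays. The 9 measured oligodendrocyte markers had the highest mean of any marker list in every group. They averaged 14.67 to 14.91 in PVCre striatum, against 12.70 to 14.84 in PV-tdTomato striatum. In cortex they averaged 15.33 to 15.62 in PVCre cells, against 13.11 to 15.27 in PV-tdTomato cells, with no overlap. The 4 measured markers of oligodendrocyte precursors averaged 7.93 to 9.31 in PVCre arrays, against 9.04 to 10.07 in PV-tdTomato replicates 1 and 2 and 11.79 to 12.41 in replicates 3 and 4. The markers of other interneurons and of striatal projection neurons, given above by group, were lower in every PVCre array than in every PV-tdTomato array of the same region. With the projection neuron markers as a covariate 1 receptor was called in striatum, Ephb6 (-0.90), and 0 in cortex, beside 24.0% and 23.5% of all genes. The part of the other interneuron markers was not tested. Neither the microglial markers nor the control separation overlapped between the lines. A line difference adjusted for either thus extends past any values that the lines share. With the microglial markers as a covariate, the 4 receptors called in striatum had adjusted p of 0.15 to 0.35 and the 4 called in cortex 0.30 to 0.89 (limma), while 12.3% and 6.82% of all genes were called. With the control separation as a covariate, beside 27.5% of all genes, 2 receptors were called in striatum. Ephb3 was lower in PVCre cells (-1.49, limma adjusted p = 0.014). Epha7 was higher in them (3.13, limma adjusted p = 0.026), against a difference of 0.25 without a covariate. Epha8, Ephb1 and Ephb6 then did not pass there (adjusted p of 0.054 to 0.45), and in cortex Ephb3 alone was called, beside 26.5% of all genes. Epha7 in striatum was also higher in PVCre cells with the oligodendrocyte markers as a covariate (1.38, limma adjusted p = 0.0087) and lower with those of oligodendrocyte precursors (-1.72, limma adjusted p = 0.0045). When arrays were centred on their medians, 2 were called in each region, Epha8 and Ephb6 in striatum and Epha3 and Ephb6 in cortex, beside 52.1% and 53.3% of all genes. No batch is labelled, and one that coincided with the line could not be separated from it.

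Some members varied together from array to array. The likeness of 2 profiles was measured as the root mean square difference over the 16 arrays after each gene was centred on its own mean. It was smallest for Epha3 and Epha5 (0.39), Epha5 and Epha6 (0.46), Ephb3 and Ephb6 (0.46) and Epha6 and Epha7 (0.55), and largest for Epha7 and Ephb1 (2.07). Epha3, Epha5, Epha6 and Epha7 were high in PV-tdTomato replicates 1 and 2 of both regions, where Pvalb was also high. Epha5, Epha6 and Epha7 were lowest in PVCre cortex replicates 2 and 4, the arrays of low Gad1. Ephb1 had its highest PV-tdTomato values in replicates 3 and 4, with the oligodendrocyte precursor markers, as the map of centred levels shows. These likenesses are descriptions, since all profiles share the arrays, their quality and their cell makeup.

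**Figure D4:**
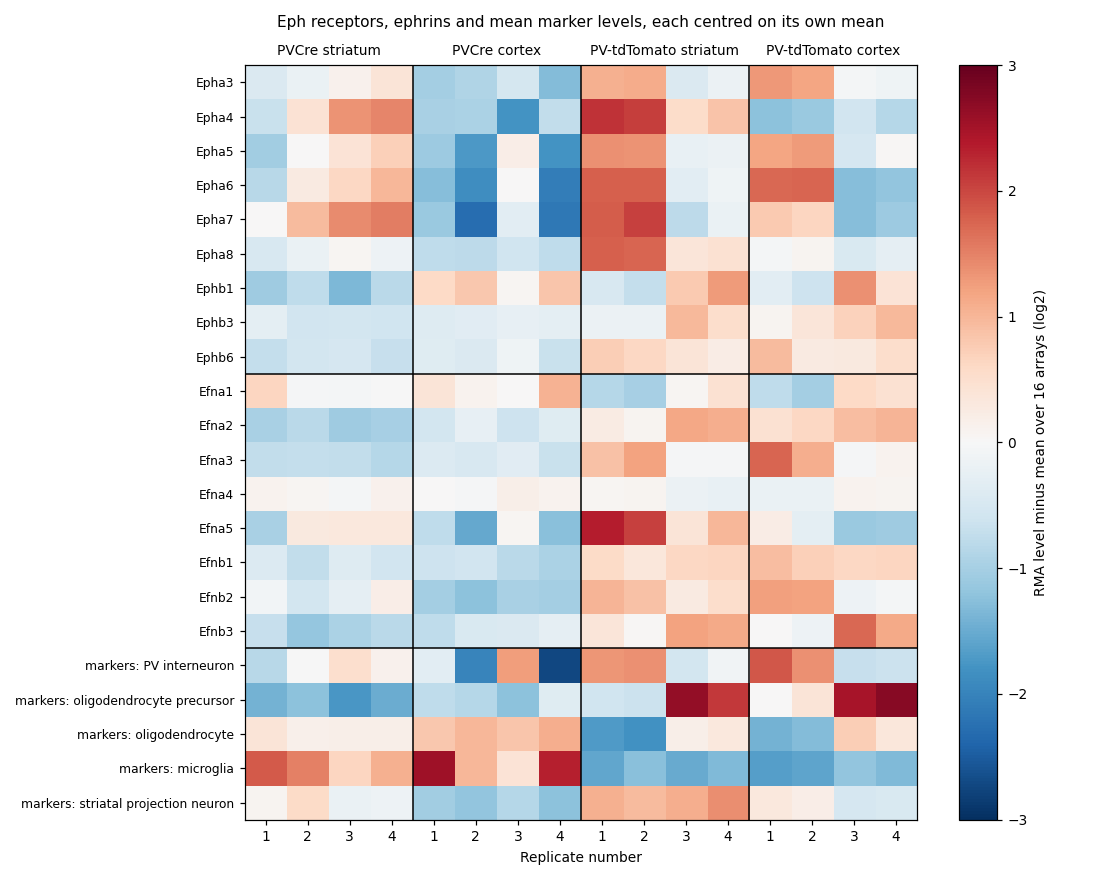
RMA level of each Eph receptor and ephrin and mean level of 5 marker lists on each array, minus the mean over 16 arrays (colour, log2; red above and blue below the mean); columns are replicates in the 4 groups. Epha4 is red in striatal columns and blue in cortical ones, with PVCre striatum replicate 1 as the exception, and microglial markers separate PVCre from PV-tdTomato columns.

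Among all named genes tested, those most like Epha4 were Lgr5, a receptor for R-spondins, with a root mean square difference of 0.36 over the 16 arrays, Ndst4, a heparan sulfate-modifying enzyme, with 0.47, and Pde3a, a cyclic nucleotide phosphodiesterase, with 0.50. Lgr5 had mean levels of 7.92 in PVCre striatum, against 5.76 in PVCre cortex, and 8.47 in PV-tdTomato striatum, against 6.02 in PV-tdTomato cortex. For Epha8 they were Drp2 (0.23), Chrnb4 (0.25) and Tmem164 (0.26), and for Ephb1 Trp53bp2 (0.22), Eml1 (0.23) and Cyp27a1 (0.24). Those most like Ephb3 were Lpo (0.13), Etv4 (0.14) and Tdrd7 (0.14), and those most like Ephb6 were Spsb3 (0.14), Fkbp8 (0.15) and Rrp7a (0.15). Nhs (0.22), Msra (0.23) and Rgmb (0.24) were nearest to Epha3, and Mtmr7 (0.20), Sh3rf3 (0.23) and Clvs2 (0.24) to Epha5. The smaller distances of Ephb3 and Ephb6 go with their smaller spread, an SD of 0.54 and 0.57 over the 16 arrays against 1.27 for Epha4.

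The further receptors of the family were near background. Epha1 and Epha2 were below the filter on low levels. Without that filter 15479 of 30740 genes were called between the lines in striatum and 15671 in cortex. Epha2 was at 5.80 to 7.05 in PVCre striatum, against 4.66 to 4.69 in PV-tdTomato striatum. It was then higher in PVCre cells by 1.53 ± 0.22 in striatum and 1.42 ± 0.22 in cortex (SE, limma, adjusted p = 7.6e-05 and 0.00014). This is opposite in sign to the members called between the lines. Epha1 was lower in PVCre striatum, with -0.25 ± 0.09, and had -0.09 ± 0.09 in cortex (SE, limma, adjusted p = 0.034 and 0.42). Epha10, a receptor with an inactive kinase, was lower in PVCre than in PV-tdTomato striatum, with a difference of -0.59 ± 0.21 (SE; limma, adjusted p = 0.027), and had -0.49 ± 0.21 in cortex (limma, adjusted p = 0.060). Ephb4, known from blood vessels, had group means of 5.53 to 5.72 and no call.

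Of the 8 ephrins, the ligands, Efna5 alone was called between the regions, over both lines and in PV-tdTomato cells. Of all genes, 4.25% and 2.32% were called in these comparisons. This ligand of EphA receptors, which forms repellent gradients in topographic maps, had 7.20, 8.46, 8.47 and 8.47 in PVCre striatum, against 7.41, 6.64, 8.23 and 6.90 in PVCre cortex. It had 10.53, 10.21, 8.54 and 9.17 in PV-tdTomato striatum, against 8.38, 7.87, 7.04 and 7.10 in PV-tdTomato cortex. The regions were apart in PV-tdTomato cells and overlapped in PVCre cells. The difference was 1.44 ± 0.34 over both lines (SE; limma, adjusted p = 0.024), 0.86 ± 0.48 in PVCre cells (limma, adjusted p = 0.42) and 2.02 ± 0.48 in PV-tdTomato cells (limma, adjusted p = 0.038). The other ephrins had region differences of -0.32 to 0.50 over both lines.

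Between the lines 6 of 8 ephrins were lower in PVCre striatum and 5 of 8 in PVCre cortex, with 0 higher, where 35.0% and 34.4% of all genes were lower. Efnb1, a ligand of EphB receptors, had the smallest p in both: it averaged 6.76 ± 0.16 in PVCre striatum, against 7.83 ± 0.14 in PV-tdTomato striatum, and 6.56 ± 0.18 in PVCre cortex, against 8.02 ± 0.14 in PV-tdTomato cortex (SD, n = 4; limma, adjusted p = 8.4e-06 and 7.3e-07). Efna2 and Efnb3 followed in striatum, at -1.61 ± 0.22 and -1.59 ± 0.37 (SE; limma, adjusted p = 4e-05 and 0.0022), and Efna3 at -1.25 ± 0.35 (limma, adjusted p = 0.0080). In cortex Efna2 was at -1.19 ± 0.22, Efnb2 at -1.63 ± 0.30 and Efna3 at -1.20 ± 0.35 (SE; limma, adjusted p = 0.00044, 0.00045 and 0.010). Efna1 and Efna4 did not pass in either region, with differences of 0.12 to 0.57. The median of the 8 was -1.16 in striatum and -1.18 in cortex, beside -0.22 over all genes.

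Of 28 proteins that act with Eph receptors or ephrins, nearly all of them inside the cell, 27 were tested; Rock2 had no annotated cluster. Between the regions 1 of the 27 was called over both lines, where 4.25% of all genes were called. In each line 1 was called as well, beside 3.88% of all genes in PVCre and 2.32% in PV-tdTomato cells. The call over both lines was Grip1, a scaffold that binds ephrin-B proteins and AMPA receptors. It averaged 10.42 ± 1.18 in PVCre striatum, against 7.18 ± 1.04 in PVCre cortex, and 10.33 ± 1.38 in PV-tdTomato striatum, against 9.24 ± 1.39 in PV-tdTomato cortex (SD, n = 4), a difference of 2.16 ± 0.58 over both lines (SE; limma, adjusted p = 0.049) and 3.24 ± 0.82 in PVCre cells (limma, adjusted p = 0.040). Vav2, an exchange factor that Eph receptors recruit, had a region difference of 0.04 ± 0.29 in PVCre cells and was lower in PV-tdTomato striatum than in PV-tdTomato cortex, with -1.20 ± 0.29 (SE; limma, adjusted p = 0.041). The median region difference of the 27 was 0.01.

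Between the lines 18 of these 27 were lower in PVCre striatum and 19 in PVCre cortex, with 0 higher, beside the same 35.0% and 34.4% of all genes, and their median difference was -0.82 in striatum and -0.92 in cortex. Anks1, an adaptor that binds Eph receptors, had the smallest p: -1.25 ± 0.11 in striatum and -0.99 ± 0.11 in cortex (SE; limma, adjusted p = 8e-07 and 6e-06). Ngef, the exchange factor ephexin that acts downstream of EphA4, was at -1.32 ± 0.15 and -1.13 ± 0.15 in the same order (limma, adjusted p = 6.1e-06 and 2.3e-05). Pick1, a PDZ protein, was at -1.11 ± 0.12 in striatum (limma, adjusted p = 5.9e-06), and Nck2, an adaptor between Eph receptors and the actin cytoskeleton, at -0.81 ± 0.13 in striatum and -0.84 ± 0.13 in cortex (limma, adjusted p = 0.00012 and 0.00010). Vav2 was at -2.05 ± 0.29 in cortex (SE; limma, adjusted p = 5.1e-05). The quality and marker values given above for the lines stand beside these counts too.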

How the data were processed

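Per the labels' protocols, Trizol was used to isolate RNA, of which 5 ng went into amplification for Affymetrix mouse transcriptome arrays. Per the submitters' processing notes, the log2 expression values that the authors deposited were made by RMA with Affymetrix Expression Console; its version, a genome build and which arrays were normalized together are not given in the sources used.

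The table held 72688 probe sets, of which 6732 were controls and 65956 transcript clusters. In the platform annotation 31213 clusters had a single gene, 1537 had several and 33206 had none listed; 827 symbols were updated through their Entrez number. For the 364 genes with several clusters the highest mean stood for the gene. The lowest 33.3% of genes (a mean under 5.53) were left out, and 20493 were tested. Array medians were 5.97 to 6.13, and no 2 arrays were identical; arrays give no read depth, and their number limits the precision.

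A linear model of 4 group means over 16 arrays was fitted with limma 3.58.1 (lmFit, eBayes; R 4.3.3), with Benjamini-Hochberg adjustment and a threshold of 0.05. It gave striatum minus cortex, on average and per line, PVCre minus PV-tdTomato per region, and the interaction. For each comparison a simulation of 20493 genes kept each gene's spread. It changed sets of 50 genes by 0.5, 1, 2 and 3 (log2) within the same fit. Of genes changed by 2, the fit recovered 96% for the region comparison over both lines, 92% in PVCre and 76% in PV-tdTomato cells. It recovered 92% for each line comparison and 80% for the interaction. Of genes changed by 1 it recovered 82%, 50% and 48% between the regions in the same order. Between the lines it recovered 52% in striatum and 62% in cortex, and 32% for the interaction. The simulated noise was independent between arrays and genes, and most genes were unchanged, whereas 53.4% of genes were called between the lines in striatum. The rates in these data may therefore differ. Tables and plots used Python 3.11.15, pandas 2.3.3 and matplotlib 3.10.9. The 10 members, the ephrins, further receptors and signalling partners were chosen with earlier results of these data known. Named genes were all members, ephrins and further receptors, up to 4 called partners per comparison by smallest p, and for each called member the 3 genes with the most similar profile, predicted models and clones left out.

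Replicate numbers are shared by the groups. After removing group means, same-numbered striatal and cortical PV-tdTomato arrays correlated at r = 0.76, 0.58, 0.70 and 0.62 across genes, so these numbers were taken as pairs. The best match was the own number in 2 of 4, and the labels do not state pairing. Striatal replicates 2 and 4 correlated best with cortical replicates 1 and 3 (r = 0.66 and 0.64). True pairs thus cannot be told apart from a split of replicates 1 and 2 from 3 and 4. The pairs entered only the replicate block and not the main fit. PVCre pairs gave -0.01, 0.28, 0.69 and -0.29 and were not taken as pairs. The numbers are those of the titles; a second label numbers the PVCre cortex arrays differently, so those pairs rest on an unsettled numbering. Alternatives were other filters, the mean of a gene's clusters, quantile normalization, median centring, a trended robust prior, array weights, only the arrays compared, the replicate block, marker or control levels as covariates, arrays of low Pvalb left out, and each array left out. Added after the data were seen were leaving out the 2 arrays of low Gad1, the Xist class (8 arrays above 9), and the oligodendrocyte precursor and parvalbumin interneuron markers as covariates. Promoter windows are RefSeq's, in GRCm38.p6.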

Additional observations from a re-analysis of the deposited data

Results flagged for a closer look

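A level stood far from its group. Ephb3 in PVCre striatum replicate 1 was at 5.41, against 5.11 to 5.14 in the other 3 arrays of the group, and its gap to the nearest was 0.901 of the group's range, above Dixon's critical value for 4 samples. All 4 values lay under the highest mean of the background probe sets, 6.1. In all, 36 sets of 4 arrays were examined, and chance flags about 1 in 20 of them.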

How the results depend on the processing

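Of the 13 called differences of single receptors, Epha4 between the regions over both lines kept its call under all 17 other settings (1.92 to 3.5) and in all 16 fits that left out 1 array, and Epha4 in PV-tdTomato cells under all 18 (2.25 to 3.85). Epha4 in PVCre cells kept it under 6 of 18. The numbers of receptors called over both lines and in PV-tdTomato and PVCre cells were 2, 2 and 1, beside 4.25%, 2.32% and 3.88% of all genes. They were 1, 1 and 1 with genes under a mean of 6.27 left out, beside 624, 307 and 624 genes called. With no filter they were 2, 2 and 0, beside 889, 493 and 754 genes called. After quantile normalization they were 2, 1 and 2 (4.46%, 1.97% and 5.09% of all genes). After median centring they were 2, 2 and 0 (4.26%, 2.19% and 3.97%). With array weights they were 8, 3 and 4 (27.5%, 7.77% and 12.1%). With projection neuron markers as covariate they were 1, 1 and 0 (0.625%, 0.644% and 0.576%). With microglial markers they were 2, 2 and 0 (4.27%, 2.31% and 3.77%). They were 3, 2 and 2 with oligodendrocyte markers (5.64%, 3.58% and 4.66% of all genes). With the control separation they were 3, 2 and 3 (5.7%, 2.55% and 6.23%). With oligodendrocyte precursor markers they were 3, 2 and 3 (5.88%, 3.46% and 6.12%). With parvalbumin interneuron markers they were 3, 2 and 2 (7.04%, 3.84% and 5.68%). Without low Pvalb arrays they were 4, 2 and 1 (7.8%, 5.09% and 3.44%), the 1 being Ephb1, with Epha4 lost. Without low Gad1 arrays they were 1, 1 and 0 (2.97%, 2.08% and 1.54%). With the Xist class they were 2, 2 and 0 (4.13%, 2.25% and 3.6%). On the arrays compared alone they were 1 in PV-tdTomato and 2 in PVCre cells, beside 1.4% and 5.01% of all genes. With the replicate block they were 4, 2 and 4, beside 10.1%, 2.83% and 10.2% of all genes. The numbers were taken as pairs only for the PV-tdTomato arrays, where the block changed no call.

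Between the lines, the number called in striatum was 4, beside 53.4% of all genes. It was 2 with genes under a mean of 6.27 left out (8135 genes called) and 2 after median centring (52.1% of all genes). With the control separation, which like the microglial markers did not overlap between the lines, it was also 2 (27.5%). Of the 4 only Ephb3 was kept there, and Epha7 was called higher, at 3.13. The number was 1 with projection neuron markers (24.0%) and 0 with microglial markers (12.3%). In cortex the number was 4, beside 53.6% of all genes. It was 2 after median centring (53.3%) or without low Gad1 arrays (40.3%) and 1 with the control separation (26.5%). It was 0 with projection neuron markers (23.5%) or microglial markers (6.82%). With oligodendrocyte precursor markers it was 7 (58.7%), and without low Pvalb arrays 8 (46.3%). The replicate block left 4 in striatum and 4 in cortex, beside 52.9% and 53.1% of all genes. The interaction had 1 with oligodendrocyte and 2 with precursor markers, beside 0.795% and 1.03% of all genes. With 1 array left out, the counts were 2 to 3 over both lines, 1 to 2 in PV-tdTomato and 0 to 1 in PVCre cells, 3 to 4 between the lines in striatum, 3 to 5 in cortex and 0 for the interaction.

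Of 46 single differences, 3 called values changed sign: Ephb1 between the lines in striatum, 0.05 with precursor markers, and Epha5 in cortex, 0.66 with microglial markers and 0.54 with the control separation. The others that changed sign had not passed, and of those Epha7 in striatum passed with precursor markers and Ephb1 in cortex with oligodendrocyte markers. With oligodendrocyte, projection neuron and microglial markers and the control separation in turn, the line differences in striatum were 0.26, 0.15, 0.71 and 0.86 for Epha3, 0.26, 0.29, 1.46 and 1.81 for Epha5, and 0.76, 1.29, 1.87 and 2.40 for Epha6; in cortex they were 0.19, 0.13, 1.13 and 1.10 for Epha6 and -0.68, -0.11, -0.66 and -0.54 for Ephb1. Epha7 in cortex was 0.31, 0.61 and 1.38 with oligodendrocyte markers, microglial markers and control separation, and Epha7 in striatum -0.24 with array weights, -0.96 without low Pvalb arrays and -1.72 with precursor markers (called), beside called values of 1.38 with oligodendrocyte markers and 3.13 with the control separation. Epha8 in cortex was 0.05 and 0.17 with oligodendrocyte markers and control separation, and Ephb1 there -0.21 with parvalbumin interneuron markers. Epha4 in cortex was 0.45 after quantile normalization, 0.17 after median centring, 0.18 with oligodendrocyte markers and 0.49 with the control separation.

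With projection neuron markers, region differences over both lines were -0.29 for Epha3, -0.37 for Epha5, -1.04 for Epha6 and 0.10 for Ephb3; in PVCre cells -0.46 for Epha6 and 0.12 for Ephb3; and in PV-tdTomato cells -0.93 for Epha5, -1.62 for Epha6, -0.29 for Epha7 and 0.09 for Ephb3. With oligodendrocyte markers Epha3 over both lines was -0.01 and Ephb3 in PVCre cells 0.08. In PV-tdTomato cells Epha5 was -0.22, -0.06 and -0.23 with oligodendrocyte markers, control separation and precursor markers, Epha3 was 0.56 and Ephb6 0.15 with array weights, and Ephb6 0.07 without low Pvalb arrays. Ephb1 there was -0.11 with its clusters averaged, -0.03 after quantile normalization, -0.05 after median centring, -0.74 with array weights, -0.01 with microglial markers and -0.12 without low Pvalb arrays. With 1 array left out, sign changes gave ranges of -0.42 to 0.09 for Epha3, -0.25 to 0.35 for Epha5, -0.35 to 0.39 for Ephb1 and -0.10 to 0.13 for Ephb6 between the regions in PV-tdTomato cells, -0.25 to 0.69 for Epha7 between the lines in striatum and -0.29 to 0.06 for Epha4 in cortex. The causes were not tested. Levels near background limit Epha8, Ephb3 and, in PVCre cortex, Epha3.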
